A study of Mus musculus with 25 samples.

Results

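This account describes 8 genes of the red cell programme in the developing mouse liver: 6 transcription regulators (Gata1, Klf1, Tal1, Nfe2, Gfi1b and Lmo2) and 2 receptors (Epor and Tfrc). They were chosen by symbol, and the array measured all 8 of them among 18194 genes. A probe set, the group of short probes that reads 1 transcript, was used only if it was annotated to exactly 1 symbol. Tfrc had 6 such sets and each of the other genes had 1, so 13 sets were read, and Tfrc was represented by the set with the highest mean over the stages. Values are log2 of the array intensity, so a difference of 1 is a doubling.

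The samples were whole livers of C57/B6 mice, which the labels call random-bred. No genotype or treatment differed between them, and the groups are ages. The 6 postnatal stages were the day of birth (Day0), Day3, Day7, Day14, Day21 and adults of 18 weeks (Adult), with 3 livers pooled at each. The 8 fetal stages ran from embryonic day 11.5 (E11.5) to E18.5, with 12 livers pooled at E11.5, 9 at E12.5 and E13.5, 6 at E14.5 and E15.5, and 3 at the later fetal stages. Each stage was therefore 1 pool. The pools of E18.5, Day7 and Day14 were hybridised to 1 array each and the other 11 pools to 2 arrays each, which gave 25 arrays.

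Array medians lay between 5.41 and 5.53 log2 and the repeat arrays of a pool correlated at r = 0.986 to 0.996 across genes. Hepatocyte genes were read in every pool, with a summed intensity of 100983 to 135639 over 16 genes after birth and 30239 to 127416 before birth. The E18.5 pool stood apart in skeletal muscle genes, whose summed intensity over 16 genes was 2369 there and 653 to 783 in the 13 other pools. The comparison of postnatal with fetal pools, the fetal course and the change across birth are therefore also given without E18.5. Some other results include it. In whole liver, fewer red cell precursors and less RNA of a gene per precursor cannot be told apart.

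The fetal liver is the main site of red cell formation before birth, and this work later moves to the bone marrow and, in mice, the spleen. Gata1 encodes the zinc finger protein that binds GATA motifs and drives erythroid genes, Tal1 and Lmo2 encode its partners in a complex bridged by Ldb1, and Klf1 binds CACCC-type motifs in globin and red cell membrane genes. Epor carries the erythropoietin signal that keeps precursors alive, and Tfrc takes up transferrin-bound iron for haem and is also used by other dividing cells.

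The stretches of DNA just upstream of the starts of 5 of these genes are printed because Gata1 and Klf1 encode factors that read 2 kinds of short motif. The sequences are RefSeq's, of build GRCm38.p6, 250 bases upstream of the annotated start and 5′ to 3′ on the strand of the gene. Windows were found for 6 of the 8 genes (8 windows, since Tal1 and Tfrc have 2 starts each). Capitals mark 4 GATA forms, which are AGATAA, the form TGATAA, the form AGATAG and the form TGATAG, and also CCNCNCCC, on either strand; matches of CCNCNCCC may overlap each other. The windows lie at chr8:84901732-84901981 (plus strand) for Klf1, chr9:21963577-21963826 (minus strand) for Epor, chr2:28621983-28622232 (minus strand) for Gfi1b, chrX:7967911-7968160 (minus strand) for Gata1 and chr16:32608646-32608895 (plus strand) for the more upstream start of Tfrc.
Klf1: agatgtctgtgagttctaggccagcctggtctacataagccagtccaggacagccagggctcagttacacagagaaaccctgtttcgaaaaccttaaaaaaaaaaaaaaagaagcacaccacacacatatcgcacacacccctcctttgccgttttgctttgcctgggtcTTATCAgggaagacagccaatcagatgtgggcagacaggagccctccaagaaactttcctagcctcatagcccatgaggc
Epor: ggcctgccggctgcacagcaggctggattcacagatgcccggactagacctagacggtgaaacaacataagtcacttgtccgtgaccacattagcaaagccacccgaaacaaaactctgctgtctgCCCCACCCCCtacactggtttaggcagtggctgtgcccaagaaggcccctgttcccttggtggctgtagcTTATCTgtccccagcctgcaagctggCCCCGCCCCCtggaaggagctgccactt
Gfi1b: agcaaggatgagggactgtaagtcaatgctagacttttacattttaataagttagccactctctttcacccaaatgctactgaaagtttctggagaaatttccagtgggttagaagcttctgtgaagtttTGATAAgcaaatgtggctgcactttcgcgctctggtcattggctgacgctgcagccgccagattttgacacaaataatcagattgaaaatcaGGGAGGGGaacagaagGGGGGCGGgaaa
Gata1: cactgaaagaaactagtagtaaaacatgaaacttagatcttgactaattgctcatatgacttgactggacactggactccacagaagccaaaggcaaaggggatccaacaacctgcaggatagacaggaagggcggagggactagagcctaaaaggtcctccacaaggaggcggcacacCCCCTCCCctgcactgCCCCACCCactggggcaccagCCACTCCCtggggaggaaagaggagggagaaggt
Tfrc: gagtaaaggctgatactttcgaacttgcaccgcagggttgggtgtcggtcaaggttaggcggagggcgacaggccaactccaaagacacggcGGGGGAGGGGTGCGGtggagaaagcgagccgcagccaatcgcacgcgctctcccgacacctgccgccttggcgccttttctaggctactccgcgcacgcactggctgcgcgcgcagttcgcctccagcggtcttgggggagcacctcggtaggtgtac

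Positions are those of the leftmost printed base of a match, and the strand of a match is relative to the printed strand. The Klf1 window held 1 GATA form, TGATAA on the minus strand at -80, and no CCNCNCCC. The Epor window held AGATAA on the minus strand at -54 and 4 matches of CCNCNCCC, an overlapping pair at -124 and -122 and another at -28 and -26. The Gfi1b window held TGATAA on the plus strand at -120 and 2 matches of CCNCNCCC. The more upstream of the Tal1 starts, not printed, held AGATAA on the minus strand at -205. No GATA form lay in the printed Gata1 and Tfrc windows, which held 3 matches of CCNCNCCC each. Among 32851 windows of the same length, 26.5% held a GATA form, 45.9% held CCNCNCCC and 8.19% held both, as the Epor and Gfi1b windows did. A match is only a run of letters in these 250 bases.

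All 8 genes were lower in the postnatal livers than in the fetal livers, by a factor of 2.53 (Gfi1b) to 9.12 (Nfe2). The comparison asks how far the red cell regulators differed between the liver after birth and the liver before birth, with the 6 postnatal and the 8 fetal pools standing in as replicates of each class, so that the spread within a class includes development. A gene was called if limma's adjusted p (Benjamini-Hochberg over all genes) was under 0.05 and the difference was at least 1 log2. All 8 genes were called lower, against 4.50% of all genes called lower and 5.01% called higher. The median difference was -2.79 over the 8 genes and 0.01 over all genes.

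**Figure D1:**
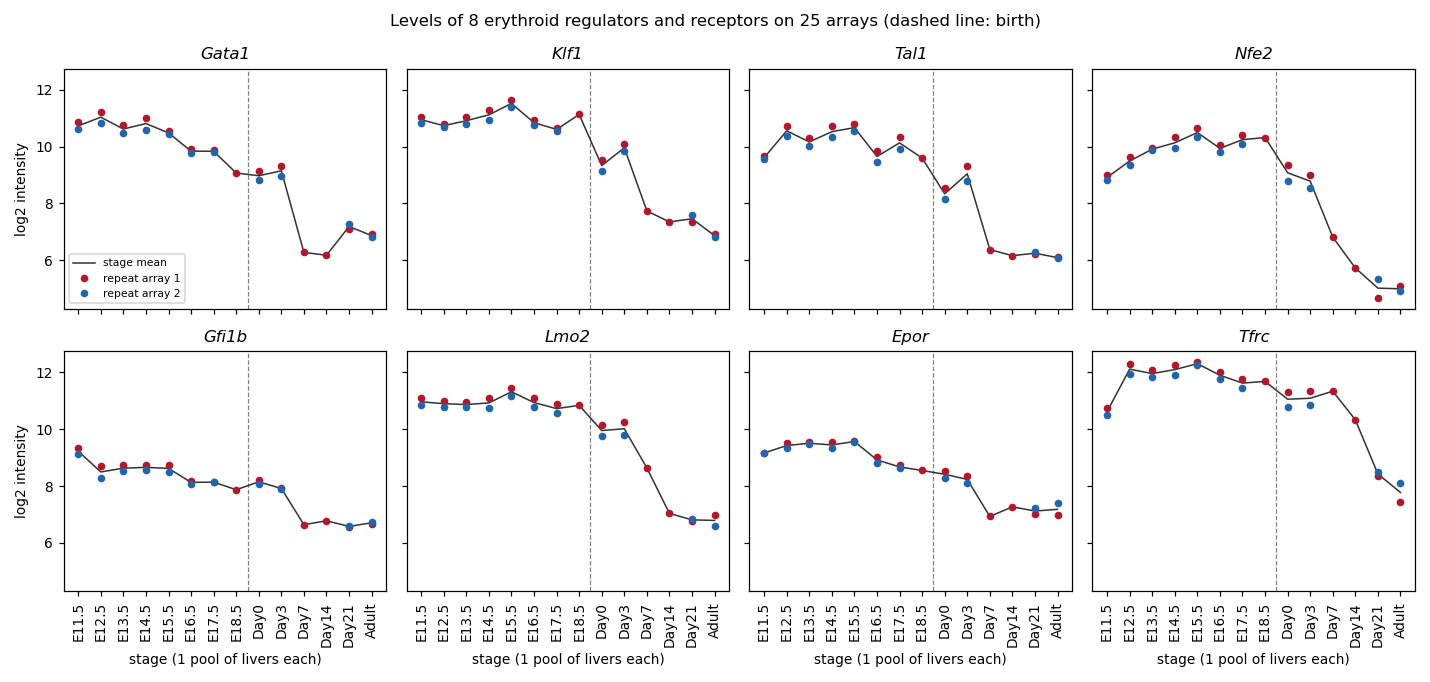
Log2 intensity (vertical axis) of the 8 genes on each of the 25 arrays by stage (horizontal axis), with repeat arrays of a pool in red and blue and a line through the stage means. Levels were above 7.8 in every fetal pool for every gene, and for 7 genes the steepest part of the line lies between Day3 and Day14, whereas the Tfrc line stays above 10 until Day14.

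Gata1 encodes the central erythroid factor. Its stage means after birth were 8.97, 9.15, 6.28, 6.18, 7.19 and 6.87 log2 at Day0, Day3, Day7, Day14, Day21 and Adult, and before birth they were 10.73, 11.03, 10.61, 10.81, 10.48, 9.84, 9.83 and 9.07 from E11.5 to E18.5. The postnatal mean was 7.44 ± 1.31 and the fetal mean 10.30 ± 0.66 (SD, 6 and 8 pools), a difference of -2.86 ± 0.50 (SE) with an adjusted p of 0.00202 in limma. Day3 lay just above E18.5, so the classes touched at their edges, while the 4 pools from Day7 on were below every fetal pool.

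Klf1, whose product activates the adult beta-globin gene, had stage means of 9.33, 9.96, 7.74, 7.35, 7.46 and 6.87 log2 after birth and 10.94, 10.73, 10.91, 11.11, 11.51, 10.84, 10.60 and 11.12 before birth. The postnatal mean was 8.12 ± 1.23 and the fetal mean 10.97 ± 0.28, a difference of -2.85 ± 0.42 (limma, adjusted p = 0.000801). Every postnatal pool was below every fetal pool. The fetal pools were also close together, within a range of 0.91 log2.

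Tal1, a basic helix-loop-helix factor that blood cells need from their beginning, had stage means of 8.34, 9.04, 6.38, 6.16, 6.25 and 6.10 log2 after birth and 9.61, 10.55, 10.16, 10.52, 10.66, 9.65, 10.13 and 9.59 before birth. The difference between a postnatal mean of 7.05 ± 1.30 and a fetal mean of 10.11 ± 0.45 was -3.06 ± 0.46 (limma, adjusted p = 0.000878). No postnatal pool reached a fetal one, and the last 4 stages lay close together.

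Lmo2, the adaptor that holds Tal1 and Gata1 in 1 complex, was the steadiest before birth. Its stage means were 9.95, 10.01, 8.64, 7.04, 6.81 and 6.79 log2 after birth and 10.96, 10.89, 10.86, 10.92, 11.31, 10.93, 10.72 and 10.83 before birth. The postnatal mean was 8.21 ± 1.54 and the fetal mean 10.93 ± 0.17, a difference of -2.72 ± 0.51 (limma, adjusted p = 0.00296), with no overlap of the classes.

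Nfe2, the tissue-restricted subunit of a factor that acts with small Maf proteins in red cell precursors and megakaryocytes, had a measured range of 5.49 log2 between E15.5 and Adult. Its stage means were 9.08, 8.78, 6.81, 5.73, 5.02 and 5.001 log2 after birth and 8.91, 9.49, 9.91, 10.13, 10.49, 9.93, 10.24 and 10.31 before birth. The arrays read intensities of 34.0 and 30.2 in Adult, against 1600 and 1292 at E15.5. The difference of -3.19 ± 0.63 between the postnatal mean of 6.74 ± 1.82 and the fetal mean of 9.93 ± 0.51 was called (limma, adjusted p = 0.00403). Day0 lay above E11.5, so the classes overlapped there. No detection calls were used, and the Adult level of Nfe2 stood at the 33.2 percentile of probe sets on the array, so how near it lay to background is not known and its measured range may be a lower bound.

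Gfi1b, a repressor needed for red cell and platelet formation, differed least among the 6 regulators. Its stage means were 8.15, 7.91, 6.64, 6.78, 6.58 and 6.71 log2 after birth and 9.23, 8.50, 8.63, 8.65, 8.62, 8.13, 8.14 and 7.87 before birth. The postnatal mean of 7.13 ± 0.71 and the fetal mean of 8.47 ± 0.42 differed by -1.34 ± 0.28 (limma, adjusted p = 0.00569). Day0 and Day3 lay among the latest fetal pools, and the 4 later pools were below all fetal pools.

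The erythropoietin receptor gene Epor had stage means of 8.41, 8.23, 6.93, 7.27, 7.12 and 7.18 log2 after birth and 9.16, 9.42, 9.50, 9.44, 9.57, 8.92, 8.67 and 8.55 before birth. The postnatal mean of 7.53 ± 0.63 and the fetal mean of 9.15 ± 0.40 differed by -1.63 ± 0.26 (limma, adjusted p = 0.00118). The classes did not overlap, but only 0.13 log2 separated Day0 and E18.5.

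The transferrin receptor gene Tfrc had stage means of 11.05, 11.08, 11.33, 10.33, 8.42 and 7.77 log2 after birth and 10.61, 12.11, 11.95, 12.09, 12.30, 11.89, 11.62 and 11.68 before birth. The postnatal mean of 9.999 ± 1.52 and the fetal mean of 11.78 ± 0.52 differed by -1.78 ± 0.54 (limma, adjusted p = 0.0318). This was the least certain of the 8 calls: Day0, Day3 and Day7 were all above E11.5. In limma the adjusted p was 0.0515 to 0.0786 when 1 pool was left out and that pool was Adult, Day21, Day14 or any from E12.5 to E15.5, and it was 0.0638 when all 6 probe sets were averaged (-1.34 ± 0.48). The other 5 probe sets of Tfrc, tested singly, gave -0.88 to -1.60 with adjusted p of 0.101 to 0.217 in limma.

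**Figure D2:**
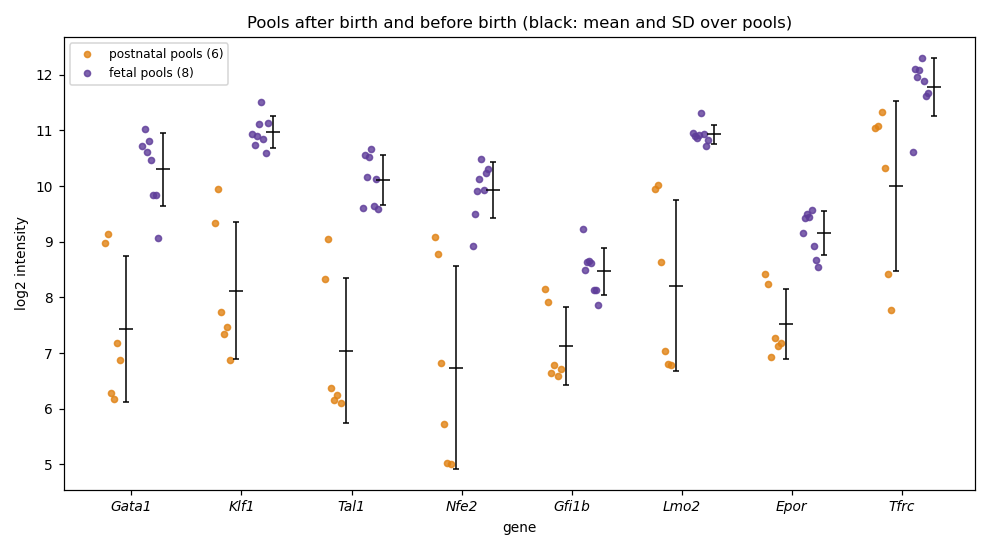
Log2 intensity (vertical axis) of each gene (horizontal axis) in the 6 postnatal pools (orange) and the 8 fetal pools (violet), 1 point per pool, with the mean and SD in black. Klf1, Tal1, Lmo2 and Epor have no overlap between the classes, and the postnatal points of every gene spread more widely than its fetal points.

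Every postnatal pool was below every fetal pool for 4 of the 8 genes (Klf1, Tal1, Lmo2 and Epor), against 1.58% of all genes. Without the E18.5 pool the count was 5, with Gata1 added, against 4.99% of all genes, and all 8 were still called, with differences of -1.43 (Gfi1b) to -3.14 (Tal1). The classes of Nfe2, Gfi1b and Tfrc overlapped with and without E18.5.

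The measured differences of the 8 genes were not equal. For each of the 28 pairs the difference between the genes in each pool was compared between classes with a two-sided exact permutation test, whose smallest p was 0.00133 over 3003 arrangements. Consecutive stages are not truly exchangeable, so these p-values describe the separation of 6 postnatal from 8 fetal pools. After Benjamini-Hochberg adjustment over the 28 pairs, 10 pairs differed. Gfi1b changed less than Gata1 by 1.52 log2, less than Klf1 by 1.51 and less than Tal1 by 1.72 (exact permutation, adjusted p = 0.0124 each), and the pairs of Gfi1b with Lmo2 (1.38, adjusted p = 0.016) and with Nfe2 (1.85, adjusted p = 0.0311) also passed.

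Epor likewise changed less than Gata1 (by 1.23), Klf1 (1.22) and Tal1 (1.44), with exact permutation adjusted p of 0.0149 to 0.016. Tfrc changed less than Nfe2 by 1.41 (exact permutation, adjusted p = 0.021) and less than Tal1 by 1.28 (adjusted p = 0.041). With 1 pool left out, Tal1 and Tfrc passed only if that pool was E16.5, E18.5, Day3 or Adult (otherwise adjusted p of 0.0522 to 0.0957). Nfe2 and Gfi1b did not pass without E14.5, E15.5, E17.5, Day14, Day21 or Adult (adjusted p of 0.0508 to 0.0725). Nfe2 and Epor did pass without E11.5, Day0 or Day3 (adjusted p of 0.0305 to 0.0356). The pair Gfi1b and Epor differed by 0.29 ± 0.13 (SE, adjusted p = 0.129) and the pair Gata1 and Klf1 by -0.01 ± 0.34 (adjusted p = 0.98), which sets no sharper limit than those errors. No pair passed when the 3 pools read on 1 array (E18.5, Day7 and Day14) were left out, where fewer arrangements exist. Gfi1b and Epor also had the lowest fetal means of the genes studied here, at 8.47 and 9.15 log2. No detection calls were used, so whether background limited their measured falls is not known.

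Before birth the genes took different courses. The question here is whether a level moved over the 8 fetal stages, and limma fitted a slope per embryonic day, given as the fitted change from E11.5 to E18.5. Gata1 fell by 1.69 ± 0.31 log2 (adjusted p = 0.00562) and Gfi1b fell by 1.07 ± 0.21 (adjusted p = 0.00753), while Nfe2 rose by 1.17 ± 0.32 (adjusted p = 0.0278). These were 2 falls and 1 rise among 8 genes, against 12.0% of all genes that fell and 4.40% that rose. The fitted changes of Klf1 (0.07 ± 0.29), Tal1 (-0.30 ± 0.45), Lmo2 (-0.09 ± 0.18), Epor (-0.81 ± 0.29, adjusted p = 0.07) and Tfrc (0.42 ± 0.51) were not called. The other 5 probe sets of Tfrc had fitted changes of 1.55 to 2.47, also not called (limma, adjusted p of 0.0735 to 0.24).

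These fetal calls depended on scale and on single pools. With quantile normalization none of the 8 was called: Gata1 was at -1.34 (limma, adjusted p = 0.0579), Gfi1b at -0.64 (0.0753) and Nfe2 at 1.42 (0.0645). Among all genes called over the fetal course, 26.9% rose, against 41.5% with quantile normalization and 67.02% when 14 housekeeping genes were set equal, which moved the median change of all genes to 0.51 from 0.04. Without E11.5 the Nfe2 change was 0.74 (adjusted p = 0.118), the Gfi1b change -0.85, and Epor passed with -1.20 (limma, adjusted p = 0.0201). Without E12.5 Nfe2 was at 1.15 (limma, adjusted p = 0.0727). Without E18.5 the 3 calls held, with Gata1 at -1.30 and Nfe2 at 1.36.

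The highest stage was E15.5 for Klf1, Tal1, Nfe2, Lmo2, Epor and Tfrc, E12.5 for Gata1 and E11.5 for Gfi1b. Levels of neighbouring rank mostly did not differ: ordered from highest to lowest, only 1 (Epor and Tfrc) to 3 (Gata1, Klf1 and Lmo2) of 13 neighbours differed at an adjusted p under 0.05 in limma. Neighbours in rank lie closest by construction, so this count does not show whether levels were flat. Some fetal stages further apart in rank did differ. Gata1 changed by -1.96 from E12.5 to E18.5 (limma, adjusted p = 2.10e-06) and by -1.20 from E12.5 to E17.5 (limma, adjusted p = 5.01e-05). Nfe2 changed by 1.57 from E11.5 to E15.5 (limma, adjusted p = 6.03e-05). The lowest stage was Day7 for Epor, Day14 for Gata1, Day21 for Gfi1b and Adult for the others.

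**Figure D3:**
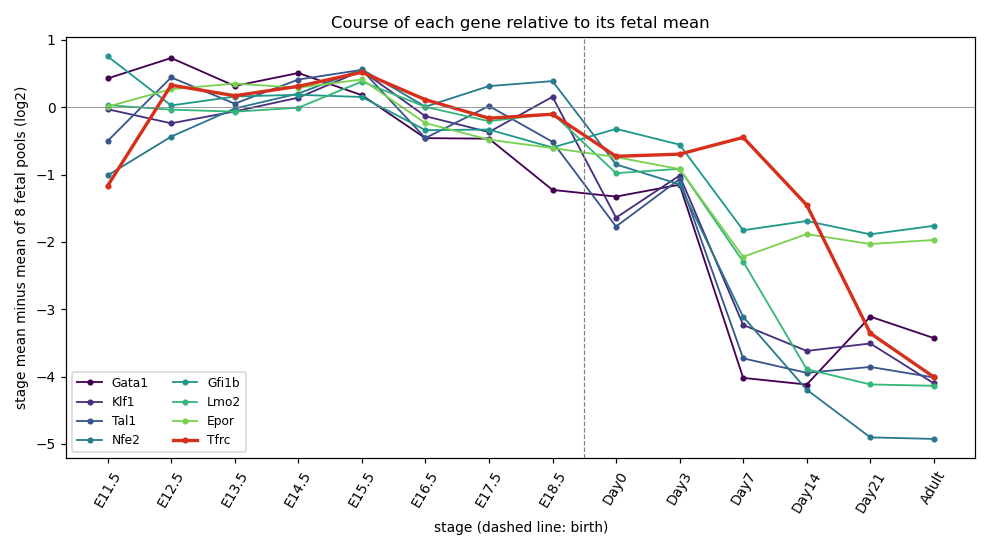
Stage mean minus the mean of the 8 fetal pools (log2, vertical axis) for the 8 genes by stage (horizontal axis), with Tfrc as the thick red line and the dashed line at birth. The lines of 7 genes drop between Day3 and Day7, the Tfrc line drops between Day7 and Day21, and the Gfi1b and Epor lines level off near -2 while the others end near -3.4 to -4.9.

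Step by step, 16 of the 104 changes between neighbouring stages were called, 14 falls and 2 rises, where over all genes 1.34% of the changes were falls and 1.54% were rises. These steps were fitted by limma to all 25 arrays, so that each compares 2 single pools and its error reflects only repeat hybridisations, and the stages with 1 array are assumed to vary like the others. Neighbouring steps share a pool. The change across birth, Day0 minus E18.5, was a fall for Klf1 (-1.80 ± 0.19), Tal1 (-1.26 ± 0.25) and Nfe2 (-1.24 ± 0.29), with adjusted p of 1.41e-05, 0.00207 and 0.00543 in limma, 3 of the 8 genes against 2.25% of all genes. Measured from E17.5 instead of E18.5, Day0 was lower by the same 3 calls, with Klf1 at -1.27, Tal1 at -1.79 and Nfe2 at -1.16, against 1.26% of all genes. Gata1 (-0.10 ± 0.21), Gfi1b (0.28 ± 0.16), Lmo2 (-0.89 ± 0.24), Epor (-0.13 ± 0.18) and Tfrc (-0.63 ± 0.29) were not called between E18.5 and Day0. Measured from E17.5, Gata1 was at -0.86 and Lmo2 at -0.77 (limma, adjusted p = 0.00248 and 0.0151), both under 1 log2. Gfi1b (0.01) and Epor (-0.26) were not called from E17.5 either. Single Day0 arrays decided calls between E18.5 and Day0. Without the second, Nfe2 was at -0.96 and under 1 log2, and without the first, Lmo2 was called at -1.06 (limma, adjusted p = 0.0134).

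The largest common change lay between Day3 and Day7. Gata1 fell by 2.87 ± 0.21 log2 (limma, adjusted p = 3.13e-07), with an intensity of 77.7 on the Day7 array, against 638 and 504 on the Day3 arrays. Tal1 fell by 2.66 ± 0.25 (adjusted p = 4.49e-06), with 83.3 at Day7 against 635 and 438 at Day3, and Klf1 fell by 2.22 ± 0.19 (adjusted p = 1.87e-06), with 213 against 1082 and 911. In each case the Day7 array was far below both Day3 arrays.

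Nfe2 fell by 1.97 ± 0.29 over the same days, Lmo2 by 1.38 ± 0.24, Epor by 1.30 ± 0.18 and Gfi1b by 1.27 ± 0.16 (limma, adjusted p of 5.76e-05 to 0.000782). Thus 7 of the 8 genes fell, against 2.84% of all genes. Tfrc did not pass, at 0.25 ± 0.29 (limma, adjusted p = 0.58), and none of its 6 probe sets was called at this step, with changes of 0.17 to 0.75. Its Day7 array read 2577, against 2566 and 1835 on the Day3 arrays.

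The gap between Tfrc and the other genes at this step was tested directly, a test chosen after the values were seen. In limma on each gene's level minus that of Tfrc, over 18193 genes, all 7 fell relative to Tfrc, by a further change of -1.52 ± 0.26 for Gfi1b (adjusted p = 0.00122) to -3.12 ± 0.24 for Gata1 (adjusted p = 8.80e-07). Of all genes, 4.07% fell relative to Tfrc.

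After Day7 the genes went separate ways. Between Day7 and Day14 Lmo2 fell by 1.60 ± 0.28 (limma, adjusted p = 0.00193) and Nfe2 by 1.08 ± 0.33 (adjusted p = 0.0397), 2 of 8 genes against 4.57% of all genes. The Nfe2 call was lost without either E11.5 or either E13.5 array (limma, adjusted p of 0.0504 to 0.0508) and with equal housekeeping levels (-0.76, adjusted p = 0.0873). Tfrc was at -1.004 ± 0.33 (limma, adjusted p = 0.0531) and passed without 1 array of Day0, Day3 or Adult (adjusted p of 0.032 to 0.0418). Between Day14 and Day21 Tfrc fell by 1.90 ± 0.29 (limma, adjusted p = 0.000554), with 325 and 364 at Day21 against 1285 at Day14, and it was the only 1 of the 8 to fall, against 0.528% of all genes. Without the second Day21 array Nfe2 fell there too (-1.04, limma, adjusted p = 0.0414). Relative to Tfrc, 99.2% of all genes were called as higher at that step, so the other 7 were not particular in this.

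Gata1 rose by 1.01 ± 0.21 between Day14 and Day21 (limma, adjusted p = 0.00469), with 139 and 154 at Day21 against 72.5 at Day14, where 3.03% of all genes rose. Without the second Day21 array the change was 0.93 and under the threshold of 1 log2. The last step, Adult minus Day21, brought no call among the 8. Day7 and Day14 were read on 1 array each, and the span from Day3 to Day21 rests on 2 arrays at each end: over it all 8 genes were called lower, from -1.11 ± 0.14 (Epor) to -3.76 ± 0.23 (Nfe2), against 4.45% of all genes.

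**Figure D4:**
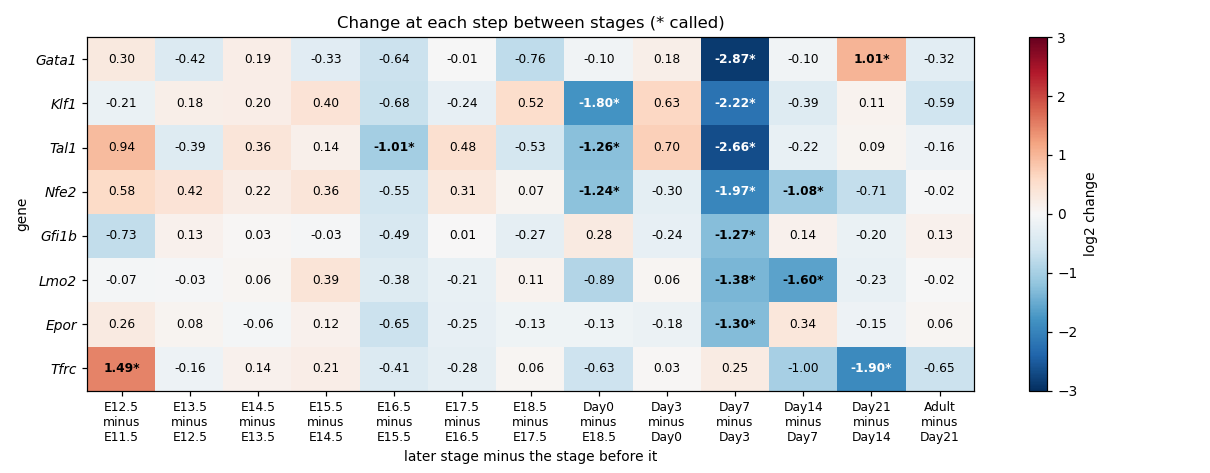
Change in log2 intensity between each stage and the stage before it (horizontal axis) for the 8 genes (vertical axis), coloured by size, with called changes marked by an asterisk. The column Day7 minus Day3 holds 7 called falls, from -2.87 (Gata1) to -1.27 (Gfi1b), and the Tfrc row shows its rise of 1.49 at E12.5 and its fall of 1.90 at Day21.

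The early fetal steps held few calls. Tfrc rose by 1.49 ± 0.23 between E11.5 and E12.5 (limma, adjusted p = 0.00045), with 4984 and 3909 at E12.5 against 1698 and 1445 at E11.5, 1 of 8 genes against 1.71% of all genes. The other probe sets of Tfrc changed by 0.40 to 1.48 at this step, and not all of them were called. Tal1 (0.94 ± 0.21) and Gfi1b (-0.73 ± 0.13) passed the adjusted p there but not the size of 1 log2, which Tal1 did reach without the second E12.5 array (1.13) and with quantile normalization (1.17) or equal housekeeping levels (1.25). Between E15.5 and E16.5 Tal1 fell by 1.01 ± 0.21 (limma, adjusted p = 0.0381), against 0.0495% of all genes, a call lost in 11 of the alternatives tried. Between E11.5 and E15.5, Tal1 (1.06), Nfe2 (1.57) and Tfrc (1.69) were called higher, 3 of 8 genes against 3.00% of all genes.

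Within the postnatal pools alone, limma's slope per log2(day + 1) over 6 pools called none of the 8 genes and 0% of all genes. The fitted changes from Day0 to Adult ran from -1.39 ± 0.53 (Epor) to -4.85 ± 0.98 (Nfe2, with the lowest adjusted p in limma, 0.178). All but Gata1 had an unadjusted limma p under 0.05 with a fitted change of -1 log2 or beyond, 7 of 8 genes against 6.68% of all genes. Unadjusted, 2540 of all genes were under 0.05. Other settings called 3 genes (quantile normalization), 11 genes (equal housekeeping levels) or 36 genes (stages by rank) of all, with none of the 8 among them.

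**Figure D5:**
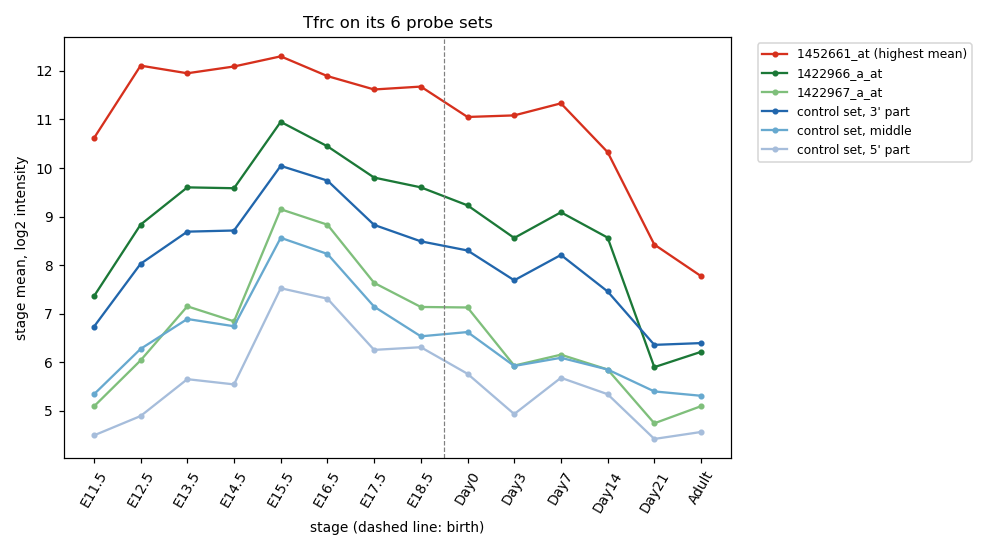
Stage means (log2 intensity, vertical axis) of the 6 probe sets of Tfrc by stage (horizontal axis), with the set used throughout in red. All 6 lines are lower at Day21 than at Day14, and between E14.5 and E15.5 the red line changes by 0.21 while the other 5 rise by 1.33 to 2.31.

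The 6 probe sets of Tfrc shared the late fall and differed before birth. Between Day14 and Day21 the sets changed by -0.45 to -2.67, and 4 of the 6 were called. Between E14.5 and E15.5 the set used here changed by 0.21 ± 0.23 (limma, adjusted p = 0.742), while the other 5 sets all rose, by 1.33 to 2.31. Among those 5, 3 are the control sets of the array for the 5′, middle and 3′ parts of the Tfrc transcript, which read RNA integrity: the 3′ set exceeded the 5′ set by 1.83 to 2.75 log2 after birth and 2.18 to 3.17 before birth. The same gap was -0.11 to 0.42 and 0.13 to 0.87 for Gapdh, and 0.38 to 0.93 and 0.42 to 1.001 for Actb. Among the fetal pools the gaps of all 3 genes were largest at E12.5, E13.5 and E14.5. From E11.5 to E12.5 the gap went from 2.24 to 3.13 for Tfrc, 0.22 to 0.87 for Gapdh and 0.59 to 1.001 for Actb. From E14.5 to E15.5 the gap went from 3.17 to 2.52 for Tfrc, 0.81 to 0.21 for Gapdh and 0.83 to 0.44 for Actb. This is the step at which the other 5 Tfrc sets rose. The part of RNA quality in the results was not tested.

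Over the 14 stages the profiles of the 7 genes other than Tfrc were alike, with Pearson r of 0.855 to 0.979 (median 0.950) over their 21 pairs, and the 7 pairs with Tfrc had r of 0.670 to 0.882 (median 0.799). These r are a description: the pairs share pools and arrays, and all 8 genes were lower after birth. Within the 8 fetal pools r ran from -0.66 to 0.88 (median 0.38) among the 7 genes and from -0.41 to 0.70 (median 0.29) with Tfrc. Levels spanned only 0.59 (Lmo2) to 1.96 (Gata1) log2 before birth, against 2.63 (Epor) to 5.49 (Nfe2) over all stages. A narrower span by itself lowers r, so these values cannot show whether the genes moved together less before birth.

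Among 3155 other genes with a highest stage mean of at least 7 log2 and a range of at least 2 log2, those most like each of the 8 were ranked by r over the 14 stages. Gata1 was most like Cdca4 (0.986), 1700037H04Rik (0.985) and Slc7a5 (0.984). Klf1 was most like Asf1b (0.984), Rgcc (0.978) and the erythroid membrane gene Ermap (0.976), and Tal1 was most like Rgcc (0.991), Arrb1 (0.988) and Kcnn4 (0.987). For Nfe2 they were Prdx2 (0.987), Cldn13 (0.986) and Rhag (0.986), a gene of the Rh complex of the red cell membrane.

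Gfi1b was most like Cenpt (0.986), Emilin2 (0.985) and Cad (0.984), and Lmo2 was most like Prdx2 (0.996), the cyclin gene Ccna2 (0.990) and Trim59 (0.989). For Epor the genes were 1700037H04Rik (0.985), Clspn (0.981) and Kcnn4 (0.980). Tfrc had looser matches in Sdcbp (0.957), Vbp1 (0.956) and Dek (0.955). The lists of the 8 genes overlap in Rgcc, Kcnn4, Prdx2 and 1700037H04Rik.

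The partners and cofactors of these regulators changed less evenly. Of 28 listed partner genes 11 were called lower and 0 higher in the postnatal pools, with a median difference of -0.90, against 4.50% and 5.01% of all genes and a median of 0.01. Mllt3 (-2.63 ± 0.37), the progenitor factor gene Myb (-2.35 ± 0.56), Ikzf1 (-2.14 ± 0.49) and the fetal globin repressor gene Bcl11a (-2.04 ± 0.38) were called lower by the most (limma, adjusted p of 0.000605 to 0.0104). Zfpm1, which encodes the GATA1 cofactor FOG1, was called lower too (-1.71 ± 0.35, limma, adjusted p = 0.00479). Ldb1, the bridge of the Tal1 and Lmo2 complex, was at -0.56 ± 0.22 (adjusted p = 0.0945) and Gata2, which Gata1 replaces as precursors mature, at -0.19 ± 0.10 (adjusted p = 0.229), neither called.

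During the fetal course 10 of the 28 partner genes fell and 0 rose, against 12.0% and 4.40% of all genes. Bcl11a (-2.50) and Myb (-1.91) were among those that fell. Between Day3 and Day7, 7 fell, among them Sox6 (-3.33) and Myb (-2.27), and 1 rose, Nfe2l2 (1.11), against 2.84% and 3.32% of all genes. Bach1, whose product competes for Nfe2 sites, fell by 1.34 at Day7 and rose by 1.73 at Day21.

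Genes of erythropoietin signalling around Epor mostly did not pass. Of 24 measured, 2 were lower (the kinase gene Pim1, -1.66 ± 0.37, and Kitl, -1.45 ± 0.31) and 1 was higher (Socs2, a brake on cytokine signalling, 1.74 ± 0.53), with a median of -0.17. Counts of this size lie near the shares of all genes, 4.50% lower and 5.01% higher, so they are not particular to this list. Jak2, the kinase bound to the receptor, was at -0.94 ± 0.22 (limma, adjusted p = 0.00912), under the size of 1 log2. Kit, the stem cell factor receptor gene, was at -1.50 ± 0.50 (adjusted p = 0.0501) and fell by 2.89 over the fetal course. The signal transducer genes Stat5a (-0.24 ± 0.15) and Stat5b (0.01 ± 0.20) were not called. Epo itself was not analysed here.

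Iron genes around Tfrc were called in both directions. Of 18 measured, 2 were called lower: Slc25a37, which carries iron into mitochondria (-2.86 ± 0.68), and its partner Abcb10 (-2.18 ± 0.36). Another 3, of hepatic iron sensing, were called higher: Hamp (hepcidin, 4.93 ± 0.77), Tfr2 (1.60 ± 0.24) and Hfe (1.58 ± 0.32), with limma's adjusted p of 0.000826 to 0.00983 over these 5 genes. The median of the list was -0.15. Of all genes, 4.50% were called lower and 5.01% higher. Slc25a37 fell by 1.86 and Abcb10 by 1.44 at Day7, the step at which Tfrc itself was not called. The genes of the iron regulatory proteins, which stabilise the Tfrc mRNA when iron is low, were at 0.87 ± 0.29 (Aco1) and -0.03 ± 0.19 (Ireb2), neither called.

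Red cell end products, many of them known targets of Gata1 and Klf1, were lower after birth in most cases. Of 28 measured, 19 were lower and 0 higher in the postnatal pools, against 4.50% and 5.01% of all genes, with a median of -1.70. Rhag (-3.95 ± 0.91), Hemgn (-3.72 ± 1.02), Kel (-3.57 ± 0.69) and the anion exchanger gene Slc4a1 (-3.34 ± 1.01) were lower by the most. Between Day3 and Day7 18 of the 28 fell, against 2.84% of all genes. Over the fetal course 1 fell and 6 rose, against 12.0% and 4.40% of all genes. Among the 6 was Alas2, the first enzyme of haem synthesis in red cells, which rose by 2.68. The 3 embryonic globin genes fell over the fetal course by 7.34 (Hbb-y), 6.79 (Hbb-bh1) and 7.69 (Hba-x). The summed intensity of the end products was 5544 to 32902 after birth and 22115 to 61416 before birth.

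Markers of other cells that use some of these genes were read beside them. Of 14 megakaryocyte genes 3 were lower after birth (Pf4 at -1.97 ± 0.61, Plek and Tubb1), against 4.50% of all genes. The summed level of the 14 was 978 to 6363 after birth and 3626 to 6051 before birth. Of 24 genes of mitosis and replication 23 were lower, Cdc6 (-3.11 ± 0.57) and Mki67 (-3.03 ± 0.90) among them, against the same 4.50% of all genes. The summed level of the 24 was 1760 to 17722 after birth and 20115 to 35527 before birth. Between Day3 and Day7, 6 of those 24 fell, against 2.84% of all genes, and between Day7 and Day14, 15 fell, against 4.57%. Between Day14 and Day21, where Tfrc fell, 5 of the 24 fell, against 0.528% of all genes. The sum of the 24 genes was 12068 at Day7, 4169 at Day14 and 2346 at Day21. Their part in the levels of the 8 genes was not tested.

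Genes of mast cells, basophils and eosinophils, some of which also use Gata1, had 0 of 14 called in either direction, with sums of 686 to 1076 after birth and 683 to 945 before birth. Stem and progenitor genes (15 measured) had 0 called, with sums of 1365 to 2015 after birth and 1526 to 2180 before birth. Of 20 endothelial genes, a cell type that also uses Lmo2 and Tal1, 2 were higher after birth and 0 lower, with sums of 2612 to 4455 after birth and 2161 to 2836 before birth. Hepatocyte genes had 9 of 16 higher and 0 lower after birth. Of all genes, 5.01% were higher and 4.50% lower in the same comparison. The part of cell composition was not tested.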

How the data were processed

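Biotin-labelled RNA from each pool of whole livers was read on Affymetrix arrays, per the labels' protocols. The deposited table holds 45101 probe sets as linear intensities from 12.6 to 25175, which the authors made with RMA, per the submitters' processing notes. No RMA version, scaling or genome build is given in the sources used here. Although the design assumed values already on a log2 scale, each deposited intensity had to be converted to log2 first, with no pseudocount. Gene symbols came from the platform annotation: 34958 sets carried 1 symbol, 932 several and 9211 none, and a RefSeq table of GRCm38.p6 changed 0 symbols and lacked 204 sets. Each of the 18194 genes was represented by the set of highest mean across the 14 stages. The number of arrays limits the precision.

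Repeat arrays of a pool are technical and were averaged before the class and course fits, while steps between stages used all 25 arrays. Because a stage is 1 pool, no p-value covers the spread between pools of the same age. Fits used limma 3.58.1 (lmFit, eBayes) in R 4.3.3, with Benjamini-Hochberg adjustment over all genes, and exact permutation tests used scipy 1.17.1. Calls needed an adjusted p under 0.05 and at least 1 log2. The fits were tested on simulated data with independent noise. Such data hold no course shared by consecutive stages, so they do not test the use of stages as replicates. Named genes are the 8 genes, the 3 most like each, and of each gene list up to 4 called genes with the largest change in each direction, up to 2 uncalled ones and a fixed set of regulators and markers; others named were chosen after their values were seen. The 8 genes and the lists were chosen with earlier results of these data known. Alternatives covered scaling, probe set choice, dim genes, variance trend, single arrays, single pools, the time axis and a replicate block.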

Additional observations from a re-analysis of the deposited data

Results flagged for a closer look

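Among the 8 fetal pools, 2 single-stage values stood far from the rest, by a rule (Dixon's) that flags about 1 in 20 groups by chance. Lmo2 at E15.5, at 11.31 log2, was above the other fetal pools by 0.595 of their whole range. Tfrc at E11.5, at 10.61 log2, was below the other fetal pools by 0.595 of their range.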

How the results depend on the processing

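The 8 genes stayed lower after birth under every alternative run, and 7 of them stayed called; Tfrc lost its call in 8 alternatives (-1.34 to -1.85). The count called was 7 to 8 when a pool was left out, with 1415 to 2039 genes in all, and 8 (1894 genes) with the replicate number as a block and the stage as a random block. Equal housekeeping levels moved the median of all genes to 0.22 from 0.01 and the share of calls that were higher to 66.4% from 52.7%. Over the fetal course, quantile normalization called 0 of the 8 (0 falling), equal housekeeping levels left 1 falling and the second arrays 1 falling; leaving out a pool gave 2 to 3 called with 2 falling, and 2521 to 3058 genes in all. The postnatal course called 3 genes with quantile normalization, 11 with equal housekeeping levels and 36 with stages by rank, and 0 when a pool was left out. Step calls numbered 17 (15 falls) with the replicate block, which added Tfrc between Day7 and Day14 (adjusted p = 0.0218), and 14 to 18 (12 to 16 falls) when an array was left out. Of 28 pairs of genes 10 differed, 8 to 12 when a pool was left out and 0 without the stages with 1 array. Deviations of same-numbered arrays were correlated at a median r of 0.398 over 55 pairs of pools (-0.573 to 0.730), not above 0.1 in every pair, so the numbers were not taken as pairing arrays. Nothing reversed direction past a threshold in any result reported here. The cause of these shifts was not tested. With 1 pool a stage and no detection calls, low levels such as those of Nfe2 after Day7 cannot be told from background.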

Other observations

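Other blood cell genes were read over the same pools. Granulocyte genes (14 measured) rose in 11 cases over the fetal course, against 4.40% of all genes, with a median fitted change of 3.35 log2. Their summed intensity was 2574 at Day14, against 23925 at Day7. Over the Day14 step 8 of them fell, against 4.57% of all genes. Macrophage genes rose in 13 of 18 cases over the fetal course, against 4.40% of all genes. In the postnatal pools 5 of 18 were higher and 0 lower, against 5.01% and 4.50% of all genes. Vsig4 was at 3.39 ± 0.43 and the Kupffer cell gene Clec4f at 2.92 ± 0.46 (limma, adjusted p = 0.000353 and 0.00115). The summed intensity of the macrophage genes was highest at Day7, at 17206, the stage at which 7 of the 8 erythroid genes were lower than at Day3.

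The first repeat array of a pool read higher than the second for most of the 8 genes, in 8 (Gfi1b) to 10 of 11 pools with 2 arrays, by a mean of 0.06 (Epor) to 0.28 log2 (Lmo2). This was not particular to the 8 genes. The mean intensity of all probe sets was also higher on the first array in each of these pools but Adult. It was 199 against 155 at Day0 and 146 against 175 in Adult. The single arrays of E18.5, Day7 and Day14 all carry the number 1.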
